A study of Drosophila melanogaster with 9 samples.

Results

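Embryos of the genotype obe1/obe2 were compared with embryos of the wild-type strain Oregon R (OreR) across all genes that reached a mean of 10 normalized counts over the 6 libraries of these groups. Of 15334 genes in the matrix, 8335 reached that mean and 6999 did not. Osi7, at 10.008, was the gene just inside, and ymp, at 9.999992, the gene just outside. The obe1/obe2 embryos were laid by transheterozygous obe1/obe2 mothers mated to obe2/+ fathers. All of their maternal RNA therefore came from mothers with an obe allele on each chromosome. Each embryo received obe1 or obe2 from its mother and obe2 or the wild-type chromosome from its father, so a library holds embryos of different zygotic genotypes. The labels do not give the lesions of obe1 and obe2, nor a shared genetic background with OreR. Each of the 3 libraries per group was made from the total RNA of about 50 embryos that were collected at an age of 3 h and picked by hand at late stage 5 to early stage 6.

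The gene obe (CG5205, obelus) encodes an RNA helicase of the Ski2 family. Helicases of this family use ATP to unwind RNA and remodel RNA-protein complexes, and other members feed RNA to the exosome or rearrange the spliceosome. The study concerns the splicing of crb, whose product Crumbs is a transmembrane protein that specifies the apical membrane of epithelial cells. Gene totals, which are compared here, do not measure splicing. At late stage 5 the blastoderm has just formed cells, and the embryo holds RNA that the mother deposited in the egg beside RNA made from its own genome.

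Whole reads recovered from the deposited values totalled 71917538, 101171295 and 69120633 in OreR and 84162382, 87237599 and 65245053 in obe1/obe2. Values of a gene are given in normalized counts in the order of replicates 1 to 3, and changes as log2 fold change ± SE, obe1/obe2 minus OreR, where 1 unit is a 2-fold change. Adjusted p is that of limma with Benjamini-Hochberg adjustment over the 8335 genes, and a gene with a value under 0.05 is called higher or lower. Unless libraries are named, the call of a gene named here was kept when any 1 of the 6 libraries was left out. Whether the libraries of a group stem from different crosses is not stated in the labels, and the p-values rest only on variation among these libraries, some or all of which may be technical. In whole embryos, fewer cells of a type and less RNA per cell cannot be told apart. The first principal component, with 62.9% of the variance, separated the groups, with OreR scores from -46.9 to -39.2 and obe1/obe2 scores from 36.6 to 49.4.

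The obe RNA itself was 5850.1, 8562 and 6755 in OreR and 821, 672 and 698 in obe1/obe2. All 3 obe1/obe2 libraries lay far under the lowest OreR library. The change was -3.26 ± 0.17, adjusted p = 6.51e-05. The authors' deposited table lists obe at a fold of 0.104 with an adjusted p of 4.22e-09. Of the 10 genes next to obe in gene order, 5 on each side, AOX1 (listed as CG18522) was the only one that reached the mean of 10. It was 2157, 2263 and 1617 in OreR and 1841, 2266 and 1371 in obe1/obe2, and the groups overlapped. The crb total was 13084, 15309.6 and 11662 in OreR and 12309, 9529 and 10561 in obe1/obe2 (-0.30 ± 0.13, adjusted p = 0.16), again with overlapping groups.

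Over all tested genes 1341 were called, 16.1% of them, with 662 higher (7.94%) and 679 lower (8.15%). Groups did not overlap in 3099 genes (37.2%), which included all 1341 called ones, and 2727 genes had an unadjusted p under 0.05. The called higher genes were lower in level and changed by more. Their median level was 1196 normalized counts and their median change 1.19, against 5062 and -0.74 for the called lower genes. A called change of at least 4-fold was found in 315 genes (3.78%). Among the higher genes 117 had an OreR mean under 10, and among the lower genes 44 had an obe1/obe2 mean under 10. The balance of directions depended on the scaling. The share of calls that were higher was 49.4% with the deposited size factors (662 higher, 679 lower) and 59.1% after quantile normalization (871 and 604). TMM factors gave 856 higher and 502 lower, and edgeR 812 and 476. The median change of all genes moved from -0.075 as deposited to 0.005 with TMM factors, so medians of families near -0.1 lie at the centre of all genes. The authors' deposited table called 525 genes, 295 higher and 230 lower. Of these, 416 were also called here, 79.2% of the authors' calls and 31.0% of the calls here, and each of the 416 had the same direction.

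**Figure D1:**
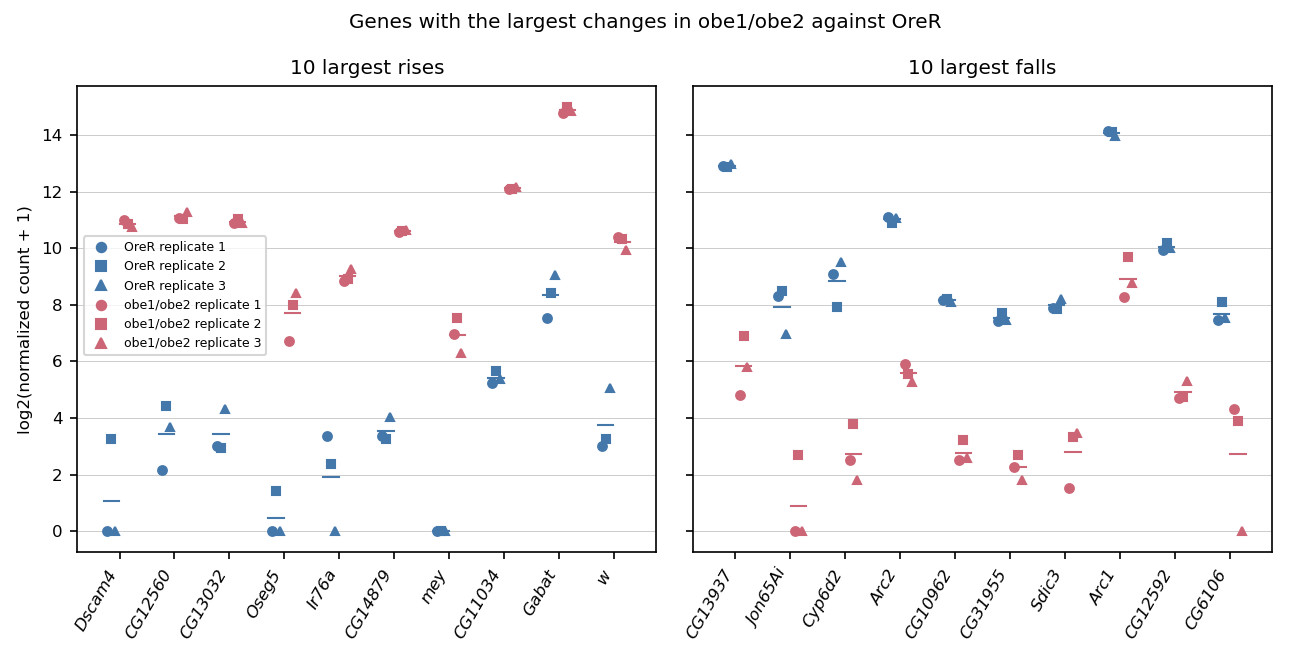
Levels of the 10 genes with the largest rises and the 10 with the largest falls, as log2(normalized count + 1), in each OreR (blue) and obe1/obe2 (red) library. Short lines mark group means, and the genes were picked among called ones in which the groups do not overlap.

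The plot of the largest changes shows the 10 steepest rises and falls library by library. Among the rises, OreR levels ranged from 0 in all libraries (mey) to values between 186 and 525 (CG7433). CG7433, which encodes a 4-aminobutyrate aminotransferase (Gabat), was 186, 340.0 and 525 in OreR and 27972, 32524 and 29944 in obe1/obe2 (6.54 ± 0.33, adjusted p = 6.51e-05). Dscam4, a cell surface immunoglobulin-superfamily gene, was 0, 8.46 and 0 in OreR and 2035, 1857 and 1729 in obe1/obe2 (9.79 ± 0.83, adjusted p = 0.000363, and 10.87 without OreR replicate 2). White (w), an ABC transporter subunit best known for importing eye pigment precursors, was 7.06, 8.46 and 32.2 in OreR and 1360.2, 1283 and 982 in obe1/obe2 (6.46 ± 0.54, adjusted p = 0.000332, and 7.10 without OreR replicate 3). CG11034 was 36.5, 49.1 and 40.6 in OreR and 4336, 4362 and 4635 in obe1/obe2 (6.70 ± 0.20, adjusted p = 9.87e-06), with little spread in either group. The ionotropic receptor gene Ir76a was 9.41, 4.23 and 0 in OreR and 462, 481 and 609 in obe1/obe2, a change of 7.08 ± 0.79, of 7.81 without OreR replicate 1 and of 6.12 without OreR replicate 3. CG12560 rose by 7.70 ± 0.53 (7.08 without OreR replicate 1), CG13032 by 7.51 ± 0.40 and CG14879 by 7.06 ± 0.30. The gene mey was 0, 0 and 0 in OreR and 123, 183 and 78.1 in obe1/obe2, at least 39.9-fold higher when OreR is set to 3 reads per library. Oseg5 was 0, 1.69 and 0 in OreR and lay between 105 and 344 in obe1/obe2. Dscam4, Ir76a, mey and Oseg5 reached the mean of 10 only through the obe1/obe2 libraries.

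The steepest falls, like the rises, were picked among called genes in which the groups did not overlap. Arc1, whose protein is a Gag-like capsid related to retrotransposons, was 18332, 17892 and 16181 in OreR and 308, 829 and 435 in obe1/obe2 (-5.18 ± 0.32, adjusted p = 0.000125). Its paralog Arc2 was 2232, 1884 and 2132 in OreR and 59.3, 45.8 and 37.8 in obe1/obe2 (-5.44 ± 0.24, adjusted p = 4.1e-05). CG13937 was 7694, 7519.9 and 8051 in OreR and 26.8, 119 and 55.5 in obe1/obe2 (-7.08 ± 0.47, adjusted p = 0.000146), and CG12592 was 985, 1163 and 1026 in OreR and 24.9, 25.6 and 39.1 in obe1/obe2 (-5.13 ± 0.27, adjusted p = 6.51e-05). Jon65Ai, a serine protease gene of the Jonah family, was 319.8, 359 and 125 in OreR and 0, 5.49 and 0 in obe1/obe2 (-7.03 ± 0.82, adjusted p = 0.00137, and -7.93 without obe1/obe2 replicate 2). CG10962 changed by -5.39 ± 0.35 and CG31955 by -5.28 ± 0.39. Sdic3 changed by -5.21 ± 0.55 (-4.59 without obe1/obe2 replicate 1). Other Sdic copies are almost the same in sequence, and which of them its reads came from is uncertain. Jon65Ai, CG10962, CG31955 and Sdic3 reached the mean of 10 only through the OreR libraries. CG6106 was 174, 271 and 185 in OreR and 19.1, 13.7 and 0 in obe1/obe2 (-4.95 ± 1.05, adjusted p = 0.0185). It was not called without each OreR library in turn (adjusted p = 0.0504 to 0.0645), and changed by -5.75 without obe1/obe2 replicate 1 and by -3.59 without obe1/obe2 replicate 3.

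The subunits of the proteasome were lower almost throughout. The proteasome is the protease that degrades ubiquitin-tagged proteins. Its core is a barrel of alpha and beta subunits, and its cap holds ATPases (Rpt) that unfold substrates and non-ATPase subunits (Rpn) that bind and remove ubiquitin. Of 31 tested subunits 29 were called lower and 0 higher, against 8.15% lower over all genes. The median change was -0.53, all 31 changes lay between -1.23 and -0.29, and in 30 the groups did not overlap, against 37.2% of all genes. The alpha subunit Prosalpha1 was listed at 0 in all libraries and was not tested. All 6 tested alpha subunits (median -0.48) and all 7 beta subunits (-0.42) were called lower, with 5 of 6 cap ATPases (-0.59) and 11 of 12 cap non-ATPases (-0.57). Rpt6 (-0.29 ± 0.09, adjusted p = 0.0563) and Rpn11 (-0.41 ± 0.25, adjusted p = 0.295) did not pass.

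Summed over these subunits, the level was 709190 in OreR replicate 1, 634470 in replicate 2 and 652440 in replicate 3, and 467780, 463700 and 459540 in obe1/obe2. In the core, Prosbeta5, which carries the chymotrypsin-like site, was 35308, 29570.5 and 32039 in OreR and 19534, 21986 and 20329 in obe1/obe2 (-0.65 ± 0.09, adjusted p = 0.0037). Prosalpha6 (listed as Pros35) was 31452, 27088 and 27549.7 in OreR and 17924, 21054 and 18302 in obe1/obe2 (-0.59 ± 0.10, adjusted p = 0.00723). In the cap, the ATPase gene Rpt2 (listed as Pros26.4) was 22457, 20899 and 21003 in OreR and 11443, 8743 and 10966 in obe1/obe2 (-1.06 ± 0.12, adjusted p = 0.00102). Rpn6, a scaffold of the cap, was 45733, 41725 and 41896 in OreR and 28800.2, 28616 and 29426 in obe1/obe2 (-0.57 ± 0.07, adjusted p = 0.00227), with obe1/obe2 libraries that hardly differed. Rpn7 was 6279, 5495 and 5030.0 in OreR and 3524, 1652 and 2320.4 in obe1/obe2 (-1.23 ± 0.26, adjusted p = 0.0171) and was not called without obe1/obe2 replicate 3 or each OreR library in turn (adjusted p = 0.0517 to 0.0658).

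Core and cap did not vary alike between the obe1/obe2 libraries. Averaged over subunits, core alpha genes lay at -0.58, -0.40 and -0.50 relative to the OreR mean in obe1/obe2 replicates 1 to 3, and core beta genes at -0.55, -0.32 and -0.48, so that replicate 2 was the highest. Cap non-ATPases lay at -0.37, -0.94 and -0.69, and cap ATPases at -0.49, -0.77 and -0.57, so that replicate 2 was the lowest. Embryos of obe2/Df have the obe2 allele over a deficiency and were compared with the same OreR libraries. In them core alpha genes lay at -0.63, -0.62 and -0.68 and core beta genes at -0.59, -0.54 and -0.63. There the cap non-ATPases lay at 0.09, -0.10 and -0.01, and the cap ATPases at -0.21, -0.36 and -0.34. These obe2/Df values are given without a test. The number of subunits that passed was sensitive to single libraries. It was 19 with TMM factors and 16 with edgeR. Leaving out OreR replicate 1 or 3 or obe1/obe2 replicate 3 gave 11 each time, and leaving out OreR replicate 2 gave 17, while the median stayed between -0.58 and -0.45 under all alternatives run. The authors' deposited table lists all 31 with a fold under 1 (0.446 to 0.818) and calls none of them.

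**Figure D2:**
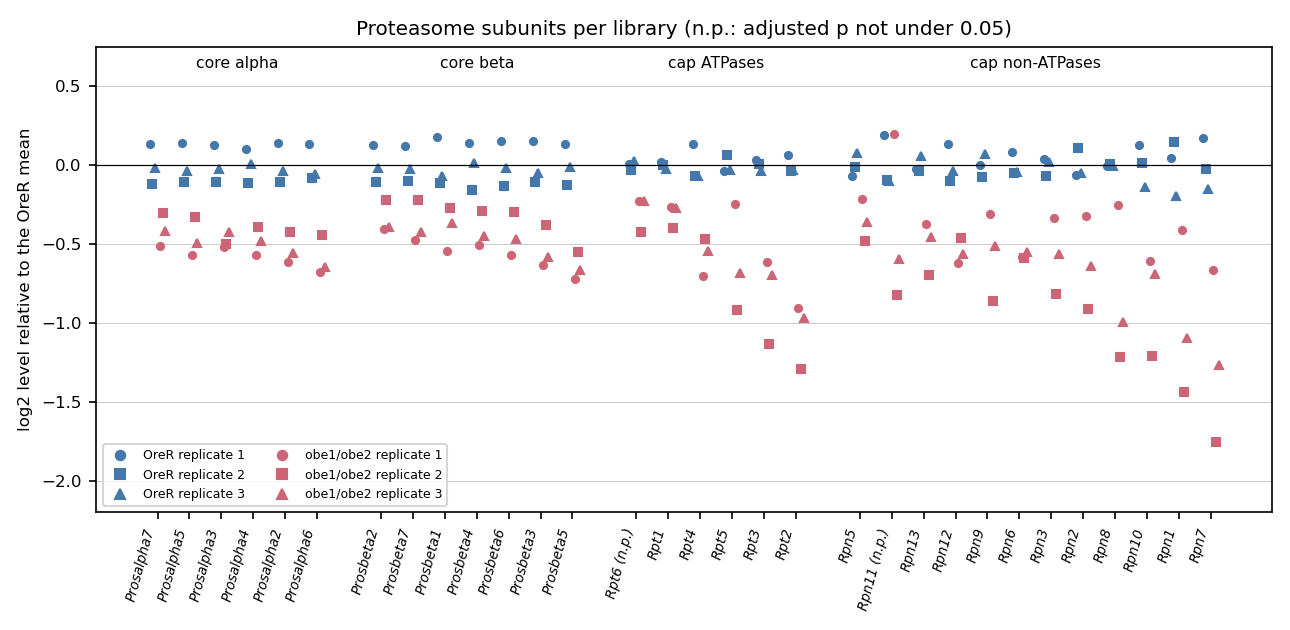
Level of each proteasome subunit per library, as log2 relative to the OreR mean of that gene, in OreR (blue) and obe1/obe2 (red). Subunits are ordered within core and cap groups by their change, n.p. marks the subunits that did not pass, and the obe1/obe2 points of cap non-ATPases average from -0.94 to -0.37, those of core alpha subunits from -0.58 to -0.40.

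Genes that work beside the proteasome moved in both directions, in a list of 14 tested partners with 2 higher and 3 lower. This list, with 35.7% called against 16.1% over all genes, was drawn up after the subunits had been seen. The polyubiquitin gene Ubi-p63E was 13274, 13282 and 11814 in OreR and 34858, 29051 and 30326 in obe1/obe2 (1.29 ± 0.10, adjusted p = 0.000205). Ubi-p5E, also a polyubiquitin gene, was 35745, 34567 and 36357 in OreR and 61072, 55869 and 58443 in obe1/obe2 (0.72 ± 0.07, adjusted p = 0.00081). Both lay above every OreR library. TER94, the AAA ATPase that extracts ubiquitinated proteins, changed by -0.67 ± 0.13, its cofactor Ufd1 (listed as Ufd1-like) by -2.03 ± 0.23, and the cap-bound deubiquitinase Uch-L5 (listed as Uch-L3) by -0.77 ± 0.10. Rpt3R, a paralog of Rpt3 from the male germline set, was 114, 125 and 172 in OreR and 333, 379 and 269.7 in obe1/obe2 (1.26 ± 0.27, adjusted p = 0.0196) and was not called without OreR replicate 1 or OreR replicate 2 (adjusted p = 0.0615 to 0.0771).

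**Figure D3:**
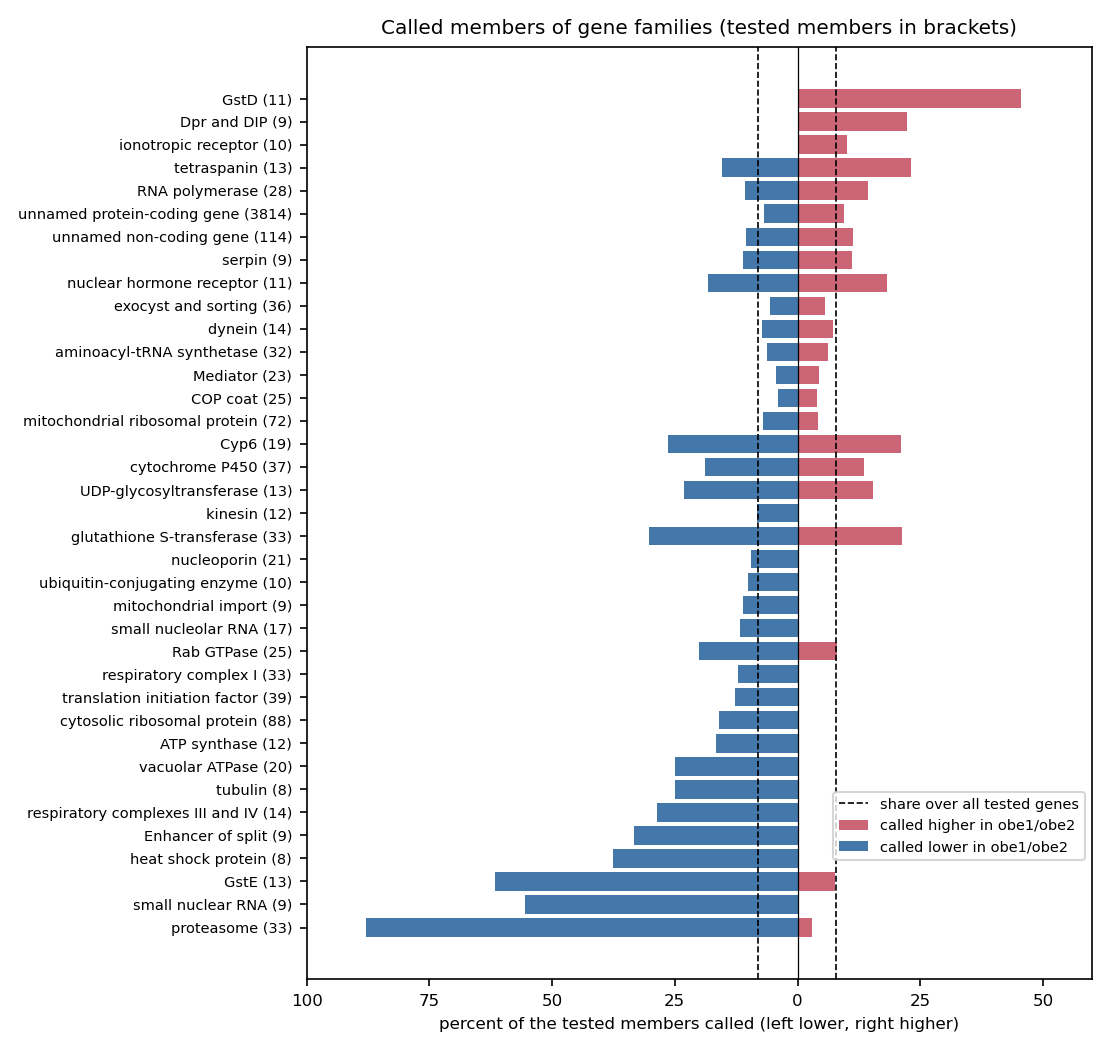
Share of tested members called higher (right, red) and lower (left, blue) in families read from gene symbols, for families with at least 8 tested members and at least 1 called. Dashed lines mark the shares over all tested genes, 7.94% higher and 8.15% lower.

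The plot of families shows how far each departs from the share over all genes. Of 59 families, 49 had a called member. In 11 of them at least 3 members were called in 1 direction and at least 3 times as many as in the other, 9 downward and 2 upward. The detoxification families had calls in both directions, with 7 higher and 10 lower of 33 glutathione S-transferases (51.5% called) and 5 higher and 7 lower of 37 cytochrome P450 genes (32.4% called). The higher calls were the less stable. They were 4 to 6 among the glutathione S-transferases when a library was left out, with 4 without OreR replicate 3. Among the cytochrome P450 genes they were 3 without OreR replicate 3 or obe1/obe2 replicate 1 or 2, 2 without OreR replicate 1 or 2, and 1 without obe1/obe2 replicate 3, with 7 to 9 lower.

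The glutathione S-transferases, which conjugate glutathione to electrophilic compounds, split by class as read from their symbols. The GstD genes lie together on chromosome arm 3R. Of 11 tested, 5 were called higher (2 with a minimum mean of 50) and 0 lower, with a median of 1.99. The share called higher over all genes was 7.94%. The GstE genes lie on arm 2R. Of 13 tested, 8 were called lower and 1 higher, with a median of -1.16, against 8.15% called lower over all genes. Genes within each class are similar in sequence, so reads may be shared between members. GstD1 was 43.5, 67.7 and 103 in OreR and 4271, 1312 and 1354 in obe1/obe2 (4.85 ± 0.51, adjusted p = 0.000918), with replicate 1 of obe1/obe2 far above the other two. GstD9 was 7.06, 40.6 and 15.5 in OreR and 403, 489 and 563 in obe1/obe2 (4.77 ± 0.57, adjusted p = 0.00155, and 5.38 without OreR replicate 2). GstD2, at 4.7, 2.54 and 0 in OreR and 34.5, 16.5 and 23.9 in obe1/obe2, was not called without OreR replicate 2, obe1/obe2 replicate 1 or obe1/obe2 replicate 3 (adjusted p = 0.0532 to 0.0791). It reached the mean of 10 only through the obe1/obe2 libraries.

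Among the GstE genes, GstE7 was 4012, 3236 and 3862 in OreR and 224, 433 and 383 in obe1/obe2 (-3.46 ± 0.26, adjusted p = 0.000199), GstE6 was 1900.2, 1165 and 1404 in OreR and 159, 64.1 and 111 in obe1/obe2 (-3.79 ± 0.36, adjusted p = 0.000532), and GstE1 was 6804, 5870.0 and 5721 in OreR and 786, 1524 and 977 in obe1/obe2 (-2.54 ± 0.23, adjusted p = 0.000494). GstE11, at 1022, 865 and 770.1 in OreR and 2683, 2056 and 1931 in obe1/obe2 (1.32 ± 0.18, adjusted p = 0.00319), was the member called higher. GstS1, of another class, changed by -1.97 ± 0.19. Between 3 (without OreR replicate 3 or any 1 obe1/obe2 library) and 4 GstD genes were called higher when a library was left out (2 with a minimum mean of 50), and between 6 and 8 GstE genes called lower.

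**Figure D4:**
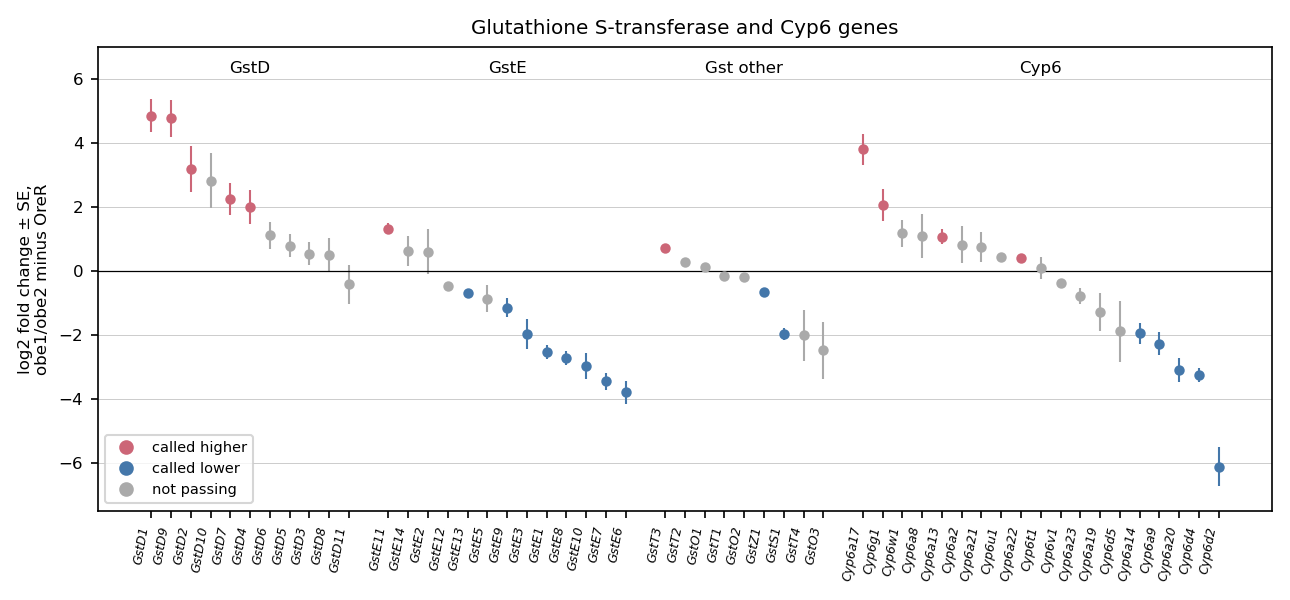
Log2 fold change ± SE, obe1/obe2 minus OreR, of each tested glutathione S-transferase and Cyp6 gene, coloured by the call. GstD genes lie mostly above 0 and GstE genes mostly below it, while Cyp6 genes reach from 3.80 to -6.13.

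The Cyp6 genes, a cytochrome P450 group with many enzymes that oxidize plant toxins and insecticides, had 4 higher and 5 lower of 19. That is 47.4% called, against 16.1% over all genes. Leaving out a library gave 5 to 6 lower and 1 to 3 higher, with 1 without obe1/obe2 replicate 3 and 2 without OreR replicate 1, OreR replicate 2 or obe1/obe2 replicate 1. Cyp6d2 was 550.3, 242 and 726 in OreR and 4.79, 12.8 and 2.52 in obe1/obe2 (-6.13 ± 0.61, adjusted p = 0.000712) and Cyp6d4 was 2073, 2246 and 2255 in OreR and 218, 302 and 181 in obe1/obe2 (-3.25 ± 0.22, adjusted p = 0.00016). Cyp6a20 was 361, 339 and 712 in OreR and 52.6, 65.9 and 37.8 in obe1/obe2 (-3.10 ± 0.38, adjusted p = 0.0017), whereas Cyp6a17 was 2.35, 7.61 and 4.78 in OreR and 84.2, 54.0 and 95.8 in obe1/obe2 (3.80 ± 0.49, adjusted p = 0.00227). Cyp6a17 reached the mean of 10 only through the obe1/obe2 libraries, and Cyp6d2 only through the OreR libraries. Cyp4e2 was 6709.7, 6472 and 8114 in OreR and 1966, 2055 and 2049 in obe1/obe2 (-1.80 ± 0.12, adjusted p = 0.000146). Of 13 UDP-glycosyltransferases, which add sugars to small molecules, 2 were higher and 3 lower (5 lower without OreR replicate 1), with Ugt36E1 (listed as CG17322) at 10928, 10201 and 11292 in OreR and 5169, 5305 and 5160.1 in obe1/obe2 and Ugt50B3 (listed as CG30438) at 335, 279 and 555 in OreR and 2299, 2769 and 3291 in obe1/obe2. The antioxidant list had 3 higher and 2 lower of 21, 23.8% called against 16.1% over all genes. The lower count was 5 without obe1/obe2 replicate 1 or 2 and 0 without OreR replicate 1, OreR replicate 3 or obe1/obe2 replicate 3. The higher count was 2 without OreR replicate 1 or obe1/obe2 replicate 1 and 1 without any other single library. Gclc, the catalytic subunit of the enzyme that limits glutathione synthesis, rose (0.95 ± 0.17, adjusted p = 0.00927). Keap1, which restrains the antioxidant factor CncC, was 3383, 2293 and 2354 in OreR and 3866, 5172 and 4398 in obe1/obe2 (0.76 ± 0.18, adjusted p = 0.0306) and was not called without OreR replicate 2, OreR replicate 3, obe1/obe2 replicate 2 or obe1/obe2 replicate 3 (adjusted p = 0.0548 to 0.111). Catalase (Cat) was 8332, 8206 and 8545 in OreR and 5681, 6504 and 6071 in obe1/obe2 (-0.46 ± 0.09, adjusted p = 0.0134) and was not called without OreR replicate 1, OreR replicate 3 or obe1/obe2 replicate 3 (adjusted p = 0.0526 to 0.0645).

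Of 88 cytosolic ribosomal protein genes 14 were called lower and 0 higher, or 15.9%. Over all genes 8.15% were called lower and 16.1% in either direction. The median of -0.08 was that of all genes and rose to at most 0.01 under other scalings. Without OreR replicate 3, 8 were called. RpL21 was 124605, 102168 and 114525 in OreR and 36309.6, 45173 and 46837 in obe1/obe2 (-1.42 ± 0.12, adjusted p = 0.000377), and sta, which encodes RpSA, was 148242, 135727 and 150132 in OreR and 30568, 41227 and 66623 in obe1/obe2 (-1.72 ± 0.25, adjusted p = 0.00355). RpS5b, a paralog used in the ovary, was 45786, 37800.0 and 43026 in OreR and 16824, 20829 and 22077 in obe1/obe2 (-1.09 ± 0.12, adjusted p = 0.00127). Of 39 translation initiation factor genes 5 were lower and 0 higher (median -0.16). Their called share was 12.8%, against 8.15% lower and 16.1% in either direction over all genes. In this family 1 was called without each OreR library in turn or obe1/obe2 replicate 3. The lowest adjusted p was that of eIF2alpha (listed as eIF-2alpha), at 11347, 10376 and 10249.8 in OreR and 5836, 4903 and 6413 in obe1/obe2 (-0.91 ± 0.12, adjusted p = 0.0023). Of 72 mitochondrial ribosomal protein genes 3 were higher and 5 lower, 11.1% against 16.1% over all genes. Leaving out obe1/obe2 replicates 1, 2 and 3 in turn gave 8, 3 and 2 lower, and leaving out OreR replicates 1 and 3 gave 2 and 1. Called members included mRpS5 at 6760.2, 5709 and 9259 in OreR and 16344, 17989 and 16582 in obe1/obe2 (1.26 ± 0.17, adjusted p = 0.00258) and mRpL2 at 2178, 2055 and 1988 in OreR and 922, 834 and 1151 in obe1/obe2 (-1.11 ± 0.16, adjusted p = 0.00388).

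Complex I, the first electron acceptor of the respiratory chain, had 4 lower and 0 higher of 33 (median -0.24), and 31 of the 33 changes were below 0, against 58.4% of all genes. Complexes III and IV had 4 lower of 14 (median -0.30), the ATP synthase 2 of 12 (-0.26) and the proton-pumping vacuolar ATPase 5 of 20 (-0.14), each with 0 higher. The called shares, all lower, were 12.1% for complex I and 28.6% for complexes III and IV. Those of the ATP synthase and the vacuolar ATPase were 16.7% and 25.0%. Over all genes 8.15% were called lower and 16.1% in either direction. Complex I and the ATP synthase lay above the lower share, and near or under the share in either direction. ATPsynbeta (listed as ATPsyn-beta), the catalytic subunit, was 102782, 92431 and 96192 in OreR and 49782, 34463 and 52139.5 in obe1/obe2 (-1.12 ± 0.15, adjusted p = 0.00306). The complex III gene UQCR-C1 (listed as CG3731) was 16220.3, 16118 and 14986 in OreR and 10695, 8784 and 11011 in obe1/obe2 (-0.64 ± 0.11, adjusted p = 0.00686). Vha44 was 16919, 16324 and 16463 in OreR and 9721, 8114 and 9349.7 in obe1/obe2 (-0.88 ± 0.09, adjusted p = 0.000942). Without OreR replicate 1, OreR replicate 3 or obe1/obe2 replicate 3, 1 gene of complex I, 1 of complexes III and IV and 2 of the vacuolar ATPase were called. The vacuolar ATPase had 3 without OreR replicate 2 or obe1/obe2 replicate 1, and the ATP synthase 1 without OreR replicate 1 or 3. The tricarboxylic acid cycle list had 3 lower and 0 higher of 16 (18.8% called, and 5 lower without obe1/obe2 replicate 1). Its succinyl-CoA synthetase subunit ScsbetaA (listed as skap) was 25865, 24420.3 and 25407 in OreR and 17949, 15921 and 18439 in obe1/obe2 (-0.54 ± 0.09, adjusted p = 0.00555). Glycolysis had 1 higher and 0 lower of 14, with a median of -0.33, but 1 higher and 6 lower without obe1/obe2 replicate 1, and 2 higher and 0 lower without obe1/obe2 replicate 2. The gene called with all 6 libraries, Ald, changed by 0.33 ± 0.08 and was not called without obe1/obe2 replicate 3 or each OreR library in turn (adjusted p = 0.0586 to 0.118).

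Protein folding sets differed in their share of called genes. It was 37.5% for heat shock proteins, 38.5% for the unfolded protein response list and 0% for the chaperonin CCT genes, against 16.1% over all genes. Of 8 tested heat shock protein genes 3 were lower and 0 higher, with a median of -0.57. None of them was called without OreR replicate 1 or 3, 1 without OreR replicate 2 or obe1/obe2 replicate 3, and 2 without obe1/obe2 replicate 2. Hsp26 was 27023, 19218 and 25274 in OreR and 13063, 4298 and 4774 in obe1/obe2 (-1.87 ± 0.39, adjusted p = 0.0174) and was not called without OreR replicate 1, OreR replicate 3 or obe1/obe2 replicate 3 (adjusted p = 0.0577 to 0.0702). Hsp83, the fly Hsp90, was 129473, 141889.8 and 131428 in OreR and 110478, 52445 and 62854 in obe1/obe2 (-0.91 ± 0.24, adjusted p = 0.0427), with replicate 1 of obe1/obe2 closest to OreR, and was not called without obe1/obe2 replicate 2, obe1/obe2 replicate 3 or each OreR library in turn (adjusted p = 0.0638 to 0.143). The most abundant called gene of all, the constitutive chaperone gene Hsc70-4, was 445475, 423303 and 431659 in OreR and 280851, 304256 and 335645 in obe1/obe2 (-0.50 ± 0.10, adjusted p = 0.0119). The unfolded protein response list had 4 lower and 1 higher of 13. The endoplasmic chaperone gene Gp93 was 49310.1, 51341 and 47012 in OreR and 32953, 31682 and 37307 in obe1/obe2 (-0.54 ± 0.09, adjusted p = 0.00649). The stress sensor gene Atf6 was 14903, 13568 and 16375 in OreR and 22261, 23746 and 23533 in obe1/obe2 (0.64 ± 0.09, adjusted p = 0.00366). Of its lower genes 1 was called without OreR replicate 3, and 2 without OreR replicate 1, OreR replicate 2 or obe1/obe2 replicate 3. The 8 chaperonin CCT genes had 0 calls with all 6 libraries, 1 lower without obe1/obe2 replicate 1 and 1 higher without obe1/obe2 replicate 2. Sec61beta, a subunit of the channel into the endoplasmic reticulum, was 13335, 11377 and 11661 in OreR and 2963, 1902 and 1777 in obe1/obe2 (-2.49 ± 0.19, adjusted p = 0.000238).

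Among the other most abundant called genes, alphaTub84B, which encodes the main alpha-tubulin, was 295747, 280572 and 278370.3 in OreR and 162656, 197121 and 200334 in obe1/obe2 (-0.61 ± 0.10, adjusted p = 0.00697). Pen, an importin alpha, was 141529, 139493 and 148948 in OreR and 90733, 75138 and 86742 in obe1/obe2 (-0.77 ± 0.09, adjusted p = 0.00165). RpL3 changed by -0.61 ± 0.10 and RpL15 by -0.68 ± 0.11. RpL10, RpS2 and sesB, the adenine nucleotide carrier, changed by -0.42 ± 0.11, -0.95 ± 0.19 and -0.35 ± 0.10. RpL10 was not called without OreR replicate 1, OreR replicate 3, obe1/obe2 replicate 1 or obe1/obe2 replicate 3 (adjusted p = 0.0715 to 0.128), RpS2 was not called without OreR replicate 1 or OreR replicate 3 (adjusted p = 0.0529 to 0.0548), and sesB was not called without OreR replicate 1, OreR replicate 3 or each obe1/obe2 library in turn (adjusted p = 0.0539 to 0.142). Hrb98DE, an hnRNP that regulates splicing, was the only riser among the 10, at 99098, 95138 and 90070.4 in OreR and 119234, 135152 and 145534 in obe1/obe2 (0.49 ± 0.10, adjusted p = 0.0134), and was not called without OreR replicate 3 or obe1/obe2 replicate 3 (adjusted p = 0.0599 to 0.0634).

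RNA processing genes were called in both directions. Of 9 tested Ski2-like helicases and partners 1 was higher and 2, with obe itself, were lower. Mtr4 (listed as l(2)35Df), the nuclear exosome helicase, was 14137, 14884 and 12733 in OreR and 18572, 20331 and 21267 in obe1/obe2 (0.53 ± 0.09, adjusted p = 0.00961) and was not called without obe1/obe2 replicate 3 (adjusted p = 0.0503). Brr2 (listed as l(3)72Ab), the helicase that unwinds U4 from U6 in the spliceosome, was 27034, 32703 and 28803 in OreR and 23276, 23517 and 22263 in obe1/obe2 (-0.35 ± 0.09, adjusted p = 0.0367) and was not called without OreR replicate 2, OreR replicate 3 or each obe1/obe2 library in turn (adjusted p = 0.0512 to 0.136). The cytoplasmic exosome helicase gene tst, the fly Ski2, was 2721, 3281 and 3085 in OreR and 2712, 1964 and 1996 in obe1/obe2 (-0.46 ± 0.16, adjusted p = 0.0954). Of 24 splicing regulators 2 were higher and 4 lower (25.0% called, against 16.1% over all genes). Without OreR replicate 3 they were 0 and 2, without obe1/obe2 replicate 3 they were 0 and 1, without OreR replicate 1 they were 1 and 1, and without OreR replicate 2 they were 1 and 2. The RNA-binding protein gene Rbp9 was 405, 567 and 598 in OreR and 168, 195 and 181 in obe1/obe2 (-1.51 ± 0.24, adjusted p = 0.00543). Of 27 genes of the Ski complex, the exosome and RNA decay 2 were lower and 0 higher (7.41% called), and the median was 0.08. Without OreR replicate 1 or 3 none was called.

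Spliceosomal small nuclear RNA genes had 5 lower and 0 higher of 9, with a median of -2.14, against 8.15% called lower over all genes. Their changes ran from -4.90 to 1.92, with 2 above 0. Among them 1 was called higher with a pseudocount of 5, quantile normalization, all 3 groups in 1 fit or array weights. The gene of U12, an RNA of the minor spliceosome, was 596, 591 and 740.2 in OreR and 193, 183 and 84.4 in obe1/obe2 (-2.14 ± 0.35, adjusted p = 0.00598). The U1 copy at 82Eb was 254, 179 and 217 in OreR and 6.7, 9.16 and 15.1 in obe1/obe2 (-4.32 ± 0.39, adjusted p = 0.000465). The U2 copy at 14B was 126, 125 and 150.4 in OreR and 1.91, 12.8 and 1.26 in obe1/obe2 (-4.90 ± 0.69, adjusted p = 0.0032, and -5.71 without obe1/obe2 replicate 2). The U1, U2 and U5 genes are near-identical copies, so the reads of each are of uncertain origin, and most of these RNAs lack a poly(A) tail. With a minimum mean of 50, 3 of them were called.

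Apical polarity genes had 0 higher and 1 lower of 10, 2 lower without obe1/obe2 replicate 1, and 1 higher without OreR replicate 2. The gene called with all 6 libraries was sdt, which encodes the Crumbs-binding protein Stardust, at 4024, 4758 and 2806 in OreR and 1746, 2091 and 1903 in obe1/obe2 (-0.98 ± 0.20, adjusted p = 0.0154), and it was not called without OreR replicate 1 or obe1/obe2 replicate 3 (adjusted p = 0.0587 to 0.0595). The libraries of each group were close for aPKC, at 24894, 24017 and 22736 in OreR and 22249.8, 23117 and 23638 in obe1/obe2 (-0.05 ± 0.08, adjusted p = 0.648), and for par-6 (-0.12 ± 0.07, adjusted p = 0.284).

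Zygotic patterning genes varied widely between the obe1/obe2 libraries. The calls of the 21 blastoderm genes rested on 1 library. With all 6 libraries 0 were called, 20 of 21 changes were below 0 and the median was -0.48. Without obe1/obe2 replicate 2, 14 were called lower and 0 higher, with a median of -0.94, and without any other single library 0 were called. Averaged over the list, obe1/obe2 replicates 1, 2 and 3 lay at -1.15, 0.22 and -0.90 relative to the OreR mean, and the OreR replicates at 0.40, -0.24 and -0.16. The slam gene, needed for the membranes that form cells in the blastoderm, was 127058, 95023 and 88424 in OreR and 63813, 125516 and 58894 in obe1/obe2, and ftz, a pair-rule gene, was 3247, 2110.0 and 2272 in OreR and 706, 2130.4 and 1294 in obe1/obe2. Replicate 2 of obe1/obe2 was at the OreR level for both. The maternal list, with nos, osk and bcd among its 12 genes, had 1 lower and 0 higher (8.33% called, against 16.1% over all genes). Its median was 0.08. Without obe1/obe2 replicate 1 the list had 4 lower, and without OreR replicate 2 it had 1 higher. The gene called with all 6 libraries, nos, was 11677, 10484 and 9616 in OreR and 7775, 5653 and 7229.7 in obe1/obe2 (-0.63 ± 0.14, adjusted p = 0.0218) and was not called without obe1/obe2 replicate 3 or each OreR library in turn (adjusted p = 0.0501 to 0.0771). The part of this difference in zygotic level between libraries in the other results was not tested.

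The Enhancer of split genes, transcriptional targets of Notch in a cluster on 3R, had 3 lower and 0 higher of 9. Over all genes 8.15% were called lower. All 9 changes were below 0, against 58.4% of all genes, with a median of -1.21. The count of lower calls was 0 without OreR replicate 2 and 2 without obe1/obe2 replicate 2. It was 1 without OreR replicate 1, OreR replicate 3 or obe1/obe2 replicate 3. E(spl)m7-HLH was 188, 297 and 169.5 in OreR and 32.5, 73.2 and 103 in obe1/obe2 (-1.74 ± 0.46, adjusted p = 0.042) and was not called without each OreR library in turn (adjusted p = 0.0898 to 0.126). E(spl)m8-HLH was 40.0, 64.3 and 26.3 in OreR and 9.57, 11.0 and 10.1 in obe1/obe2 (-1.90 ± 0.45, adjusted p = 0.027) and was not called without OreR replicate 1, OreR replicate 2 or obe1/obe2 replicate 3 (adjusted p = 0.0786 to 0.0827). E(spl)mdelta-HLH was 2.35, 109.9 and 33.4 in OreR and 0, 0 and 0 in obe1/obe2, at least 15.5-fold lower when obe1/obe2 is set to 3 reads per library, and was not called without OreR replicate 2, OreR replicate 3 or each obe1/obe2 library in turn (adjusted p = 0.0522 to 0.124). It is a low gene with a wide spread in OreR, and it reached the mean of 10 only through the OreR libraries.

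The odorant receptor and chitinase genes were the 2 families with one-sided higher calls by the rule above. Of 7 tested odorant receptor genes 3 were higher and 0 lower, against 7.94% called higher over all genes. With a minimum mean of 50, 1 was higher, and the median fell from 0.51 to 0.05. Or43b was 1123, 1329 and 1155 in OreR and 2596, 2847 and 2206 in obe1/obe2 (1.08 ± 0.15, adjusted p = 0.00319). Or71a was 2.35, 9.3 and 5.97 in OreR and 44.0, 87.0 and 49.2 in obe1/obe2 (3.23 ± 0.55, adjusted p = 0.00735), and Or85a was 0, 0 and 0 in OreR and 50.7, 57.7 and 26.5 in obe1/obe2, at least 14-fold higher when OreR is set to 3 reads per library. Of 5 chitinase genes 3 were higher and 1 lower. Cht11 was 1035, 1179.7 and 1116 in OreR and 2297, 2213 and 2363 in obe1/obe2 (1.05 ± 0.13, adjusted p = 0.00179) and Cht6 was 21.2, 18.6 and 29.8 in OreR and 147, 131 and 170.2 in obe1/obe2 (2.65 ± 0.33, adjusted p = 0.00189), whereas Cht2 was 885, 593 and 515 in OreR and 273, 136 and 170.2 in obe1/obe2 (-1.80 ± 0.33, adjusted p = 0.0106). Of 59 odorant receptor genes in the matrix 52 were not tested, and Or71a and Or85a reached the mean of 10 only through the obe1/obe2 libraries. Of 13 tetraspanin genes 3 were higher and 2 lower, 38.5% called against 16.1% over all genes. In this family 0 were lower without OreR replicate 2, OreR replicate 3 or obe1/obe2 replicate 3. Tsp26A was 873, 913 and 765 in OreR and 3116, 3365 and 3451 in obe1/obe2 (1.96 ± 0.14, adjusted p = 0.00016).

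Of 12 follicle cell and eggshell genes and 9 male germline and accessory gland genes in the matrix none reached the mean of 10. Summed over each list they lay between 7.56 and 23.7 normalized counts and between 0 and 11.0. The 6 tested hemocyte genes and the 4 tested muscle genes had 0 calls, and 1 hemocyte gene was lower without obe1/obe2 replicate 1. Of 4 tested fat body genes 2 were higher and 1 lower. The larval serum protein gene Lsp1gamma was 35.3, 16.9 and 9.55 in OreR and 494, 474 and 329 in obe1/obe2 (4.49 ± 0.47, adjusted p = 0.000927). The lipoprotein gene apolpp (listed as Rfabg) was 555, 488 and 436 in OreR and 877, 992 and 1349.9 in obe1/obe2 (1.10 ± 0.22, adjusted p = 0.0134) and was not called without OreR replicate 3 or obe1/obe2 replicate 3 (adjusted p = 0.0546 to 0.0563). The lower gene was Fbp1, a receptor for larval serum proteins, at 63.5, 13.5 and 7.16 in OreR and 0, 3.66 and 0 in obe1/obe2 (-3.56 ± 0.95, adjusted p = 0.0422), and it was not called without obe1/obe2 replicate 1, obe1/obe2 replicate 3 or each OreR library in turn (adjusted p = 0.0556 to 0.134). Its change was -2.70 without OreR replicate 1, -4.20 without OreR replicate 3 and -4.30 without obe1/obe2 replicate 2. Fbp1 reached the mean of 10 only through the OreR libraries. The synaptic gene cpx, 1 of 5 tested neuronal genes, was 2.35, 6.77 and 2.39 in OreR and 74.7, 95.2 and 84.4 in obe1/obe2 (4.26 ± 0.47, adjusted p = 0.00113). It reached the mean of 10 only through the obe1/obe2 libraries. The other 4 neuronal genes were not called with all 6 libraries, and 2 of the 5 changes were below 0. The part of other cell types in the remaining results was not tested.

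**Figure D5:**
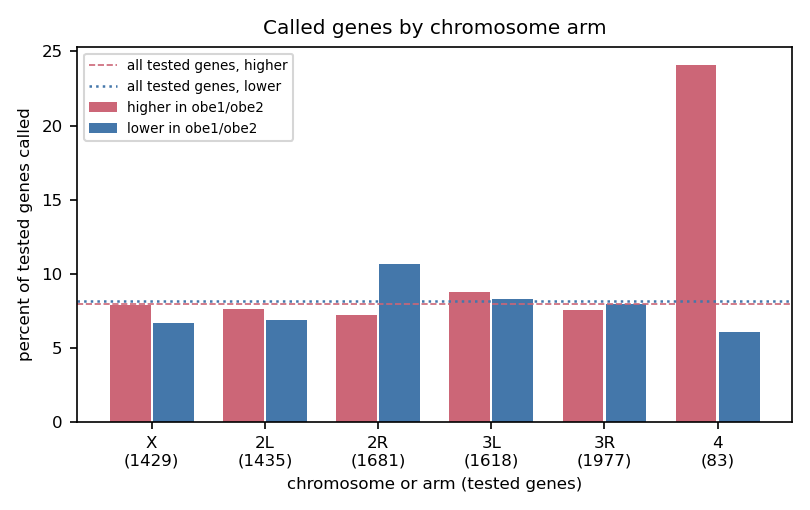
Percent of tested genes called higher (red) and lower (blue) on each chromosome arm, with the number of tested genes under each. The dashed and dotted lines mark the shares over all tested genes, and on chromosome 4 the higher share is 20 of 83 genes.

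Calls were spread over the large chromosome arms, where 14.5% (2L) to 17.8% (2R) of tested genes were called. On the small chromosome 4, 25 of 83 tested genes were called, 30.1% of them, with 20 higher and 5 lower. A called change of at least 4-fold was found in 10.8% of them, against 3.78% of all tested genes. CG31997 was 90.5, 33.0 and 71.6 in OreR and 4229, 4249 and 3311 in obe1/obe2 (6.00 ± 0.36, adjusted p = 0.000122) and CG33978 was 50.6, 39.7 and 31.0 in OreR and 705, 644 and 873 in obe1/obe2 (4.18 ± 0.28, adjusted p = 0.00016). The Pax6 gene ey, a master regulator of eye development, was 50.6, 45.7 and 39.4 in OreR and 481, 581 and 253 in obe1/obe2 (3.17 ± 0.36, adjusted p = 0.00127), and fuss (listed as CORL), a Ski/Sno relative, was 492, 359 and 669.8 in OreR and 2977, 3473 and 3199 in obe1/obe2 (2.71 ± 0.23, adjusted p = 0.000375). Sox102F, a SoxD transcription factor gene, was 803, 786 and 766 in OreR and 2457, 2575 and 2402 in obe1/obe2 (1.66 ± 0.13, adjusted p = 0.000236). The glutamate receptor gene mGluR (listed as mGluRA) was 166, 105 and 123 in OreR and 601, 577 and 629 in obe1/obe2 (2.21 ± 0.24, adjusted p = 0.00112). The lower genes were ATPsynbeta (above), PMCA, the plasma membrane calcium pump, at 52518, 49429 and 47839 in OreR and 31746, 34823 and 32256 in obe1/obe2 (-0.60 ± 0.08, adjusted p = 0.00235), the complex I gene ND-49 (listed as CG1970, -0.66 ± 0.10), CG32017 (-2.52 ± 0.27) and Hcf (-0.27 ± 0.07). Hcf was not called without each of the 6 libraries in turn (adjusted p = 0.057 to 0.129). Leaving out any OreR library gave 11 higher calls in place of 20, and leaving out obe1/obe2 replicate 3 gave 10.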

How the data were processed

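RNA of 3 OreR and 3 obe1/obe2 embryo libraries (TruSeq RNA v2, HiSeq2500) was compared. Genome build dm3 is listed in the submitters' processing notes, with Cufflinks 2.1.1, Cuffdiff and STAR as tools of unstated role. Annotation and read filters are not stated there. The deposited signal values are read counts per gene after division by 1 factor per library, since 100% of them are whole multiples of the value of 1 read within 0.001. The authors' deposited table gives a fold, the ratio of group means, and a p-value with its adjusted p-value, which were read as deposited. The kit does not keep strand, so overlapping and antisense genes cannot be separated.

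The test was limma's (version 3.58.1, R 4.3.3), fitted with an intensity trend and no covariate to log2(normalized count + 1) of the genes that reached a mean of 10 over the 6 libraries. The pseudocount understates changes of low genes. The obe2/Df libraries entered no test except in 1 alternative. The test was tried on simulated data. Precision was limited by 3 libraries per group, and the least deep held 65245053 reads. Replicate pairs differed by a chi-square of 76.3 to 283.3 per degree of freedom, beyond sampling noise. Of the 15334 symbols 11817 matched RefSeq (Release 6) by symbol and 3239 by a synonym, which was used for names, arms and gene order alone. A further 153 were ambiguous and 125 had no match.

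Families came from 59 symbol patterns and lists from 29 sets of symbols. Proteasome subgroups and partners were added after seeing the data. Members and lists were chosen with earlier results of these data known. They are described by counts and medians, without a set test. By rule, the named genes were obe, crb, the 10 largest rises and falls (called, mean 50 or more, groups apart), the 10 most abundant called genes, and up to 3 called members per list or family with the lowest adjusted p. Chromosome 4 genes and other members were named after their values were seen. Alternatives changed the pseudocount (0.5 or 5), the filter (none, or a mean of 50) or the scaling (TMM factors or quantile normalization), or used all 3 groups in 1 fit, array weights, a replicate block, a 2-fold minimum, leaving out each library, and edgeR 4.0.16 and DESeq2 1.42.0 on the recovered reads, which called 1288 and 1793 genes. Figures were drawn with matplotlib 3.10.9. A planned search for promoter motifs was not run.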

Additional observations from a re-analysis of the deposited data

How the results depend on the processing

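The fall of obe was called under every alternative run. The 1341 calls became 3654 with array weights (1515 higher, 2139 lower) and 624 with a 2-fold minimum, and DESeq2 called 1020 genes higher. Leaving out a library gave 680 to 1615 calls, 349 to 647 higher and 300 to 1042 lower, with the fewest calls in all without obe1/obe2 replicate 3 and most without obe1/obe2 replicate 1. Same-numbered libraries shared only a number: their deviations from the group means correlated at -0.045, -0.031 and 0.082, and the labels tie the numbers to nothing. A replicate block called 816 genes (418 higher, 398 lower). The count of 29 lower proteasome subunits became 19 with TMM factors, 11 with the replicate block, 16 with edgeR and 11 to 25 when a library was left out. None of the 185 named genes changed direction. For called genes this was fixed in advance when a library was left out, since their groups did not overlap. The calls of 48 of the 185 named genes were lost with the replicate block, 25 with edgeR, 18 with TMM factors and 17 to 59 when a library was left out. Embryo genotypes within a library, the genetic backgrounds and the stage of single embryos are not resolved by these data, and 3 libraries per group limit small changes.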

Other observations

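RNA polymerase genes were called in both directions. Of 28 tested members 4 were higher and 3 lower, 25.0% called against 16.1% over all genes. The lower count was 0 without OreR replicate 1, OreR replicate 3 or obe1/obe2 replicate 3, and 2 without OreR replicate 2. The higher ones included 3 subunits of RNA polymerase I, which transcribes ribosomal RNA. Polr1B (listed as RpI135) was 2742, 2680.0 and 2555 in OreR and 6124, 5371 and 4942 in obe1/obe2 (1.04 ± 0.12, adjusted p = 0.00115), Polr1F (listed as CG13773) was 3332, 3112 and 4034 in OreR and 6445, 5976 and 6923 in obe1/obe2 (0.89 ± 0.13, adjusted p = 0.00346) and Polr1H (listed as RpI12) was 802, 781 and 788 in OreR and 1424, 1446 and 1379 in obe1/obe2 (0.84 ± 0.14, adjusted p = 0.00653). The largest subunit of that enzyme, Polr1A (listed as RpI1), was 3372, 3585 and 2840.3 in OreR and 3429, 1783 and 2397 in obe1/obe2 (-0.41 ± 0.23, adjusted p = 0.259), with overlapping groups. The 3 lower genes were Polr2E (listed as Rpb5), Polr2F (listed as RpII18) and Polr2G (listed as Rpb7), named after RNA polymerase II. Of these, Polr2E and Polr2F encode subunits that RNA polymerases I and III share, so the calls do not divide by polymerase. The 3 genes changed by -0.41 ± 0.11, -0.46 ± 0.12 and -0.44 ± 0.12. Rpb5 was not called without OreR replicate 1, OreR replicate 3, obe1/obe2 replicate 1 or obe1/obe2 replicate 3 (adjusted p = 0.0634 to 0.139), RpII18 was not called without obe1/obe2 replicate 1, obe1/obe2 replicate 3 or each OreR library in turn (adjusted p = 0.0599 to 0.152) and Rpb7 was not called without OreR replicate 1, OreR replicate 3, obe1/obe2 replicate 1 or obe1/obe2 replicate 3 (adjusted p = 0.0693 to 0.146). The mitochondrial polymerase gene PolrMT (listed as mtRNApol) was 3803, 5311 and 4652 in OreR and 8030.2, 6434 and 8275 in obe1/obe2 (0.73 ± 0.15, adjusted p = 0.0185) and was not called without OreR replicate 1, OreR replicate 3 or obe1/obe2 replicate 3 (adjusted p = 0.0544 to 0.0806).

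Single genes of developmental hormone signalling also changed. The gene nvd, which encodes the oxygenase that starts ecdysone synthesis from cholesterol, was 3002, 2418 and 3084 in OreR and 183, 266 and 249.6 in obe1/obe2 (-3.61 ± 0.21, adjusted p = 9.68e-05), the call among 11 tested genes of that pathway with all 6 libraries. Without obe1/obe2 replicate 2 there were 4 lower and 1 higher, and without OreR replicate 2 there were 1 lower and 2 higher. The nuclear receptor gene Eip75B was 1587, 1911 and 1933 in OreR and 831, 677 and 669 in obe1/obe2 (-1.32 ± 0.17, adjusted p = 0.00198), and Eip78C was 4.7, 1.69 and 2.39 in OreR and 145, 132 and 89.5 in obe1/obe2 (5.02 ± 0.45, adjusted p = 0.000465). The forkhead gene fd96Ca was 0, 0 and 0 in OreR and 130.2, 98.9 and 69.3 in obe1/obe2, and fd96Cb, a forkhead gene close by, was 4.7, 3.38 and 7.16 in OreR and 57.4, 58.6 and 31.5 in obe1/obe2 (3.04 ± 0.47, adjusted p = 0.00496). Eip78C, fd96Ca and fd96Cb reached the mean of 10 only through the obe1/obe2 libraries. The zygotic dosage compensation RNA roX1 was 23525, 13275 and 13626 in OreR and 4735, 16527 and 4519.8 in obe1/obe2, and Sxl, the master gene of sex determination, was 4438, 2704 and 2469 in OreR and 1279.8, 4941 and 1039.8 in obe1/obe2. Replicate 2 of obe1/obe2 was the highest of its group for both, as for the blastoderm genes, and neither passed the test (adjusted p = 0.134 and 0.39).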
